A study of Mus musculus with 18 samples.

Results

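The genes described here are the 6 lipid synthesis genes Acaca, Acacb, Fasn, Scd1, Srebf1 and Srebf2, taken by symbol from a NanoString nCounter panel of 768 mouse metabolic genes. All 6 symbols were found, each as 1 row. The panel counts fluorescent barcodes on single RNA molecules, and the deposited value of a gene is log2(count + 1), called the log2 level below. It was read in 18 tumors of female BALB/c mice that had been injected with TUBO, a cultured line from a mammary carcinoma driven by the rat neu (HER2) oncogene.

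The combination arm received HER2 DC1 and anti-Semaphorin4D together and gave 3 treated and 3 untreated tumors. HER2 DC1 are dendritic cells given into the tumor, and anti-Semaphorin4D is an antibody that blocks semaphorin 4D, a ligand of plexin receptors. The anti-Semaphorin4D arm, the HER2 DC1 arm and the control arm without treatment gave 2 treated and 2 untreated tumors each, so there were 8 groups. Treatment lasted 3 weeks. All groups carried the same tumor line in the same strain, and the labels give no ages. The labels do not say what made a tumor of a control or antibody-treated mouse count as treated, nor whether a treated and an untreated tumor came from the same mouse. They do not say that samples of a group came from separate mice either, so p-values measure the spread between these samples. No dose of either agent is given in the sources used here.

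Cells make fatty acids from cytosolic acetyl-CoA. Acaca and Acacb encode the acetyl-CoA carboxylases that form malonyl-CoA, the cytosolic form feeding synthesis and the mitochondrial form restraining fatty acid oxidation. Fasn encodes fatty acid synthase, which builds palmitate from malonyl-CoA with NADPH, and Scd1 encodes the stearoyl-CoA desaturase that puts a double bond into saturated fatty acids. Srebf1 and Srebf2 encode the sterol regulatory element binding proteins, membrane-bound transcription factors that are released by cleavage in the Golgi. SREBP-1c from Srebf1 is known mainly for lipogenic genes and SREBP-2 from Srebf2 mainly for cholesterol genes, and both are controlled in large part by that cleavage, which an mRNA level does not show. Many carcinomas make much of their own fatty acid.

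Windows of the 250 bases before an annotated start were searched on both strands for TCACCC, the core of the sterol regulatory element first described in the LDL receptor gene. RefSeq (GRCm38.p6) gave windows for 5 of the 6 genes, and Scd1 was not used here. The window of Fasn, the one of 3 Srebf1 windows with a match and the window of Srebf2 are shown because Fasn varied most of the enzymes and the SREBP genes differed in direction in the combination arm. Each is printed 5′ to 3′ on the gene's strand, with TCACCC or its reverse complement in capitals.
Fasn, chr11:120824548-120824797, minus strand: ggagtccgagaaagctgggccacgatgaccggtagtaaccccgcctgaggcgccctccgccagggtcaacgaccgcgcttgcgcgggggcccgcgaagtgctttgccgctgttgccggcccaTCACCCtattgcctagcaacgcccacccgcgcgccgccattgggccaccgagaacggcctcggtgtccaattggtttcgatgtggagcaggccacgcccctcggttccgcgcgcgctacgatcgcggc
Srebf1, chr11:60210472-60210721, minus strand: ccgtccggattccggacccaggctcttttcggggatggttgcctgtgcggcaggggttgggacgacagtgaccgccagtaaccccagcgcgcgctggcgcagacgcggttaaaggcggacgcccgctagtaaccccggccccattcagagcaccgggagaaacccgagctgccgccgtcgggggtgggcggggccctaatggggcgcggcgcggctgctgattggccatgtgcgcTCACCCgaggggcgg
Srebf2, chr15:82147019-82147268, plus strand: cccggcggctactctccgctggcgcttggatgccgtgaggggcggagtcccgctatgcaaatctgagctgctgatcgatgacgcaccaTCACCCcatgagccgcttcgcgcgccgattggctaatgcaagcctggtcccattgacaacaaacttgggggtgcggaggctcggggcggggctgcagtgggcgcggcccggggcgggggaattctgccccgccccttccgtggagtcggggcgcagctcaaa
The match starts 128 bases before the start in Fasn, 15 bases before it in Srebf1 and 162 bases before it in Srebf2. TCACCC occurs in 13.8% of the 32851 windows in the table, so a match alone is common. The longer ATCACCCCA, which contains the core, occurs in 0.24% of windows and in these genes only in that of Srebf2. The windows of Acaca and Acacb, which lie at starts inside the annotated genes, hold neither. CCAAT, the letters bound by NF-Y, occurs at 3 places in the Fasn window and at 1 place in each of the other windows shown, against 33.9% of all windows with at least 1. GGGCGG, the letters bound by Sp1, occurs at 4 places in the Srebf2 window and at 2 places in the Srebf1 window, against 32.7% of all windows. A match is a description of these letters only.

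All 6 genes lay above background in every one of the 18 samples, where background is the mean plus 2 SD of the 8 negative control probes of a sample. The smallest margin was 1.04 on the log2 scale, for Acacb. Panel counts per sample before scaling ran from 203455 to 989216. Between 518 and 609 of the 768 panel genes were above background in a sample. In 12 samples the deposited values are scaled counts, with factors between 0.736 and 2.58, and in the other 6 they are whole numbers. All 6 combination tumors are among the scaled ones, whereas each of the other groups has 1 sample of either kind. The panel held few markers of the tissue itself. The 1 measured of 12 listed epithelial markers, Trf (transferrin), summed to between 46358 and 83502 counts in treated combination tumors, against 90202 to 106739 in treated control tumors, and to between 81974 and 99279 in untreated combination tumors, against 87631 to 128451 in untreated control tumors. In bulk tumor RNA, fewer cells of a type and less RNA per cell cannot be told apart.

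The lowest group means of Acaca, Acacb, Fasn and Scd1 were those of the anti-Semaphorin4D arm in both kinds of tumor, and the highest were those of untreated combination tumors. Over the 18 samples the log2 level of Acaca ran between 8.33 and 10.37, of Acacb between 6.33 and 7.90, of Fasn between 7.86 and 10.70, of Scd1 between 10.11 and 12.43, of Srebf1 between 8.66 and 10.90 and of Srebf2 between 8.86 and 10.30. Fasn had the widest range (2.84) and Srebf2 the narrowest (1.44), while the SD over the 18 samples was largest for Srebf1, at 0.678 against 0.643 for Fasn. The mean SD within groups was 0.414 for Fasn, the largest of the 6, and 0.218 for Srebf2, the smallest.

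**Figure D1:**
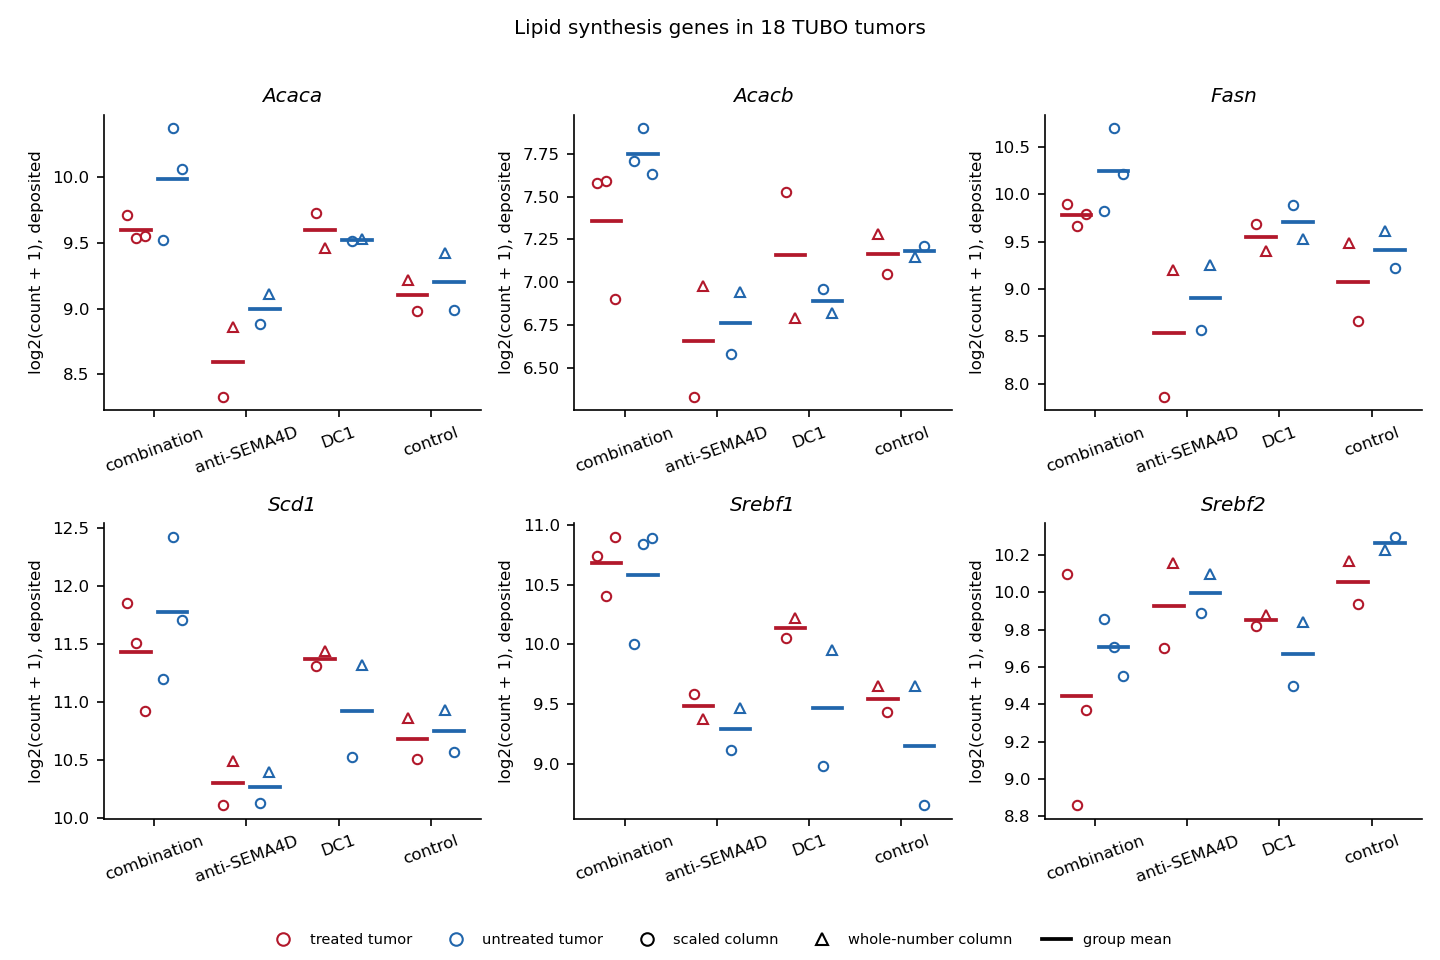
Log2 level of each gene in the 18 tumors, by arm on the horizontal axis, with treated tumors in red and untreated tumors in blue, circles for scaled samples, triangles for whole-number samples and bars for group means. Acaca, Acacb, Fasn and Scd1 are lowest under anti-Semaphorin4D and highest in the combination arm, and Srebf2 is highest in control tumors.

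The antibody alone was compared with control first. Acaca, the carboxylase of synthesis, had log2 levels of 8.33 and 8.86 in treated tumors under anti-Semaphorin4D, against 9.22 and 8.98 in treated control tumors. Untreated tumors had 8.88 and 9.11 under anti-Semaphorin4D, against 9.42 and 8.99 in control. The groups did not overlap in treated tumors and overlapped in untreated ones. The log2 change was -0.50 in treated tumors (95% interval -1.11 to 0.10) and -0.20 in untreated tumors (-0.81 to 0.40).

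Acacb, the carboxylase at the mitochondrion, had 6.33 and 6.98 in treated tumors under anti-Semaphorin4D, against 7.28 and 7.05 in control, and 6.58 and 6.94 in untreated tumors under anti-Semaphorin4D, against 7.15 and 7.21 in control. Every antibody sample lay below every control sample of its kind of tumor. The changes were -0.51 (-1.17 to 0.16) in treated tumors and -0.42 (-1.08 to 0.25) in untreated tumors. Over both kinds together the change was -0.46 (-0.93 to 0.01), with an unadjusted limma p of 0.0531, the smallest of the 6 genes.

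Fasn had 7.86 and 9.20 in treated tumors under anti-Semaphorin4D, against 9.49 and 8.66 in control, and 8.57 and 9.25 in untreated tumors under anti-Semaphorin4D, against 9.61 and 9.22 in control. Its groups overlapped in both kinds of tumor, and replicate 1 of the treated antibody tumors was the lowest of all 18 samples. The changes were -0.55 (-1.47 to 0.38) and -0.51 (-1.43 to 0.42). Without that replicate the change in treated tumors was 0.13.

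Scd1, the desaturase, had 10.11 and 10.49 in treated tumors under anti-Semaphorin4D, against 10.86 and 10.51 in control, and 10.13 and 10.40 in untreated tumors under anti-Semaphorin4D, against 10.93 and 10.57 in control. The antibody samples were the lower ones in both kinds of tumor, with no overlap in either. The changes were -0.39 (-1.25 to 0.48) and -0.49 (-1.35 to 0.37).

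The genes of the SREBP factors follow. Srebf1 had 9.59 and 9.38 in treated tumors under anti-Semaphorin4D, against 9.65 and 9.44 in control, a change of -0.06 (-0.91 to 0.79). Untreated tumors had 9.12 and 9.47 under anti-Semaphorin4D, against 9.65 and 8.66 in control, a change of 0.14 (-0.71 to 0.99). The sign of both turned when single samples were left out. Srebf2 had 9.70 and 10.16 in treated tumors under anti-Semaphorin4D, against 10.17 and 9.94 in control, and 9.89 and 10.10 in untreated tumors under anti-Semaphorin4D, against 10.23 and 10.30 in control. The Srebf2 groups overlapped in treated tumors only, with changes of -0.12 (-0.81 to 0.57) and -0.27 (-0.96 to 0.42).

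None of these changes passed the test. With limma and Benjamini-Hochberg adjustment over the 768 genes, the adjusted p was 1 for all 6 genes in treated tumors, 0.997 for all 6 in untreated tumors and at least 0.977 over both. At an unadjusted p under 0.05, 0 of the 6 passed in any of the 3 comparisons. Across the panel 0% of genes passed after adjustment in each, and 11 genes (1.43%), 25 genes (3.26%) and 26 genes (3.39%) passed before it. The intervals reach changes of about a log2 unit downward, so the size of any effect was not pinned down with 2 samples a group.

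As a description, 3 of the 6 genes had antibody samples wholly below control in treated tumors, where 16.7% of panel genes did, and 3 of the 6 in untreated tumors, where 14.1% did. The median change of the 6 was -0.44 in treated tumors and -0.35 in untreated tumors, against panel medians of 0.02 and 0.06. Over both kinds of tumor 2.7% of panel genes had a lower change than Fasn, 4.2% than Acacb, 5.2% than Scd1 and 9.1% than Acaca, against 50.3% for Srebf1. The kind of deposited column could be held fixed, with 1 antibody and 1 control sample each time. In these 4 differences Acaca, Acacb, Fasn, Scd1 and Srebf2 were lower under the antibody every time, as were 9.77% of panel genes, and Fasn was lower by 0.29 to 0.80. Some differences were small, with -0.01 for Srebf2 in treated whole-number samples and -0.11 for Acaca in untreated scaled ones. Centring the samples on the panel median or on 20 housekeeping genes moved the changes of these 5 genes over both kinds of tumor by less than 0.1.

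**Figure D2:**
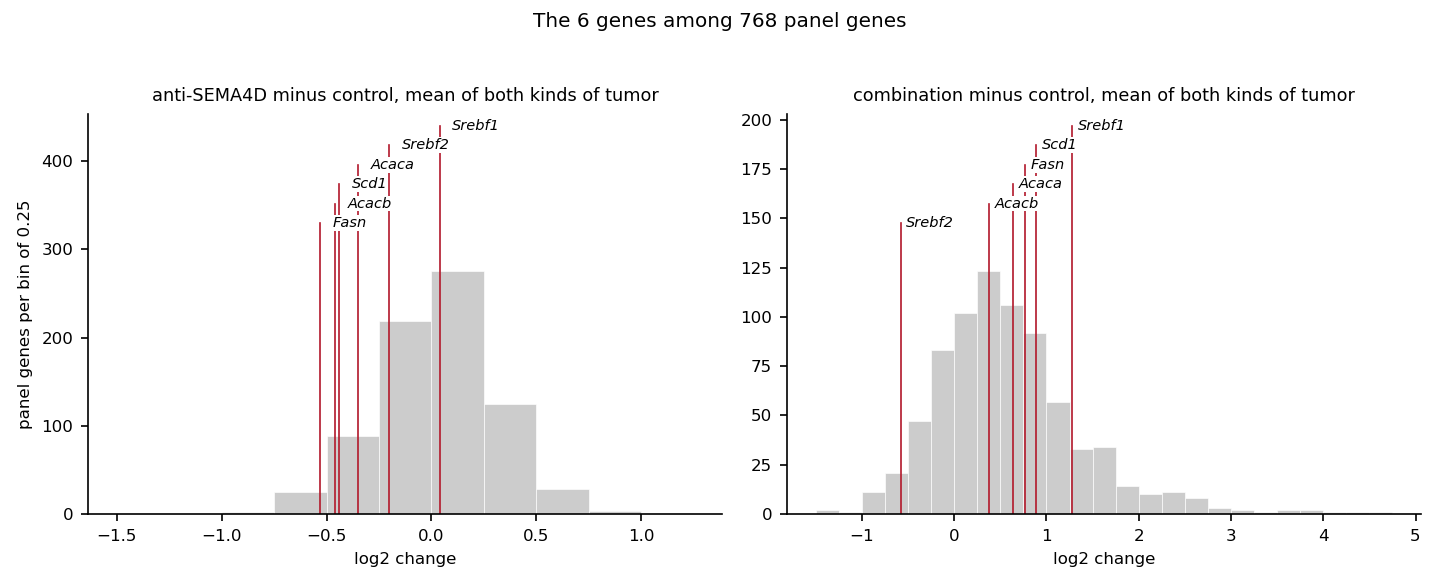
Number of panel genes per bin of log2 change over both kinds of tumor, for anti-Semaphorin4D minus control (left) and combination minus control (right), with the 6 genes as red lines. Acaca, Acacb, Fasn and Scd1 lie in the lower flank on the left, at -0.35 to -0.53, and inside the bulk on the right, where Srebf1 lies at 1.28 and Srebf2 at -0.58.

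HER2 DC1 alone was compared with control in the same way. In treated tumors Scd1 had 11.31 and 11.44 under HER2 DC1, against 10.86 and 10.51 in control, and Acaca had 9.73 and 9.46 under HER2 DC1, against 9.22 and 8.98 in control. Srebf1 had 10.05 and 10.22 in the same treated tumors, against 9.65 and 9.44 in control. These 3 genes did not overlap with control there, as 53.1% of panel genes did not in that direction. Srebf2 had 9.50 and 9.84 in untreated tumors under HER2 DC1, against 10.23 and 10.30 in control, below both, and Acacb lay below control too, as 6.77% of panel genes did. In treated tumors Srebf2 had 9.82 and 9.88 under HER2 DC1, against 10.17 and 9.94 in control, below both again, as 4.82% of panel genes were. Acaca was the 1 gene above control without overlap in untreated tumors, where 27.3% of panel genes were. The treated-tumor changes were 0.69 for Scd1, 0.59 for Srebf1 and 0.49 for Acaca, and the untreated-tumor change of Srebf2 was -0.59. With limma 0 of the 6 genes passed after adjustment and 0 at an unadjusted p under 0.05, in either kind of tumor or over both. The panel had 0%, 0% and 0.13% of genes past the adjusted threshold in these comparisons and 14.2%, 9.11% and 25.3% before adjustment.

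The single agents were then set against each other. In treated tumors Acaca was 1.00 lower on the log2 scale under anti-Semaphorin4D than under HER2 DC1 (95% interval of the change -1.60 to -0.39), Fasn 1.01 lower and Scd1 1.08 lower, and these groups did not overlap. All 3 had an unadjusted p under 0.05 in limma, and none passed, with an adjusted p of 0.174, 0.256 and 0.224. Panel genes were lower without overlap in 49.5% of cases. Panel-wide 0% of genes passed in treated tumors and 0% in untreated tumors, with 16.1% and 9.51% at an unadjusted p under 0.05. In untreated tumors Acaca, Fasn and Scd1 again did not overlap and were lower under the antibody, by 0.52, 0.80 and 0.66, while Srebf2 was higher by 0.32, also without overlap. None had an unadjusted p under 0.05 there. Of panel genes 31.9% were lower and 9.24% higher without overlap.

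**Figure D3:**
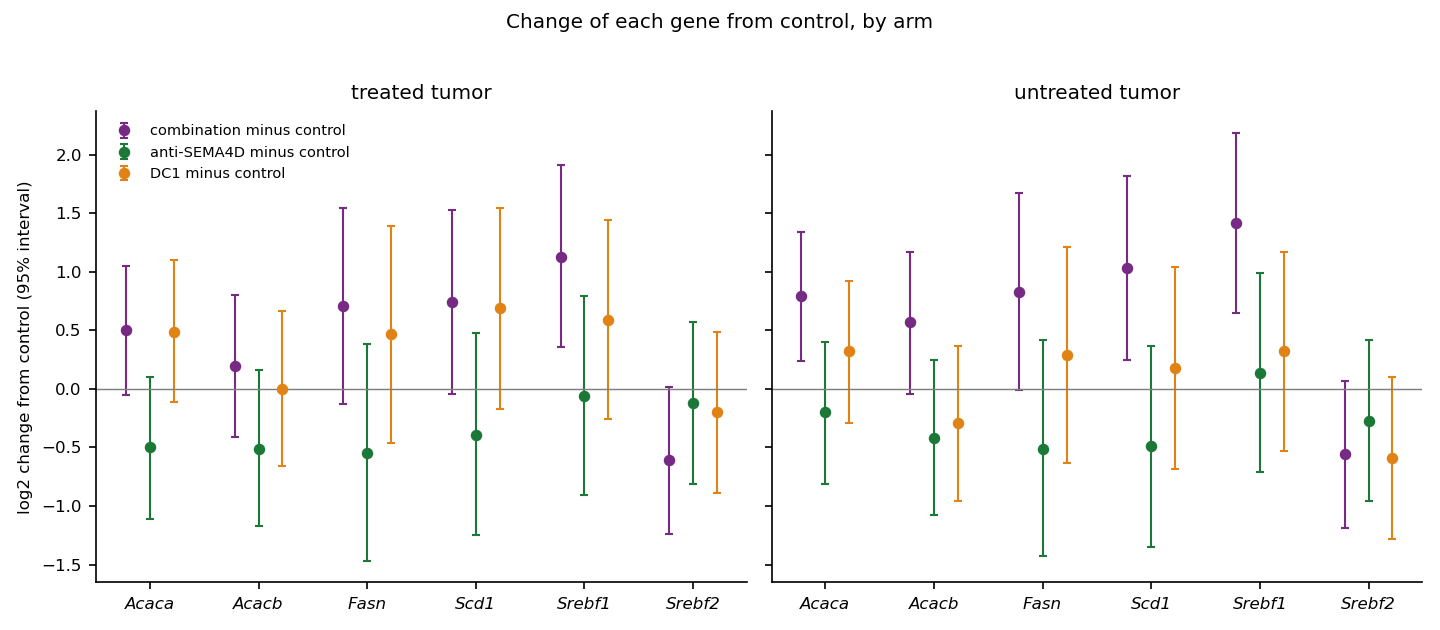
Log2 change of each gene from control in treated tumors (left) and untreated tumors (right), for the combination, anti-Semaphorin4D and HER2 DC1, with 95% intervals from the limma fit. The antibody points of Acaca, Acacb, Fasn and Scd1 are below 0 in both panels, between -0.20 and -0.55, and the combination points of Srebf1 are the highest, at 1.13 and 1.42.

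The combination was compared with control next. Srebf1 had log2 levels of 10.74, 10.40 and 10.90 in treated combination tumors, against 9.65 and 9.44 in treated control tumors. Untreated tumors had 9.997, 10.84 and 10.89 in the combination arm, against 9.65 and 8.66 in control. Every combination tumor lay above every control tumor. Within a kind of tumor, 55.6% of panel genes in treated and 47.9% in untreated tumors were likewise above control without overlap. Srebf1 rose by 1.13 in treated tumors (2.19-fold, 0.36 to 1.91, adjusted p = 0.0251) and by 1.42 in untreated tumors (2.68-fold, 0.65 to 2.19, adjusted p = 0.0235). It was the 1 gene of the 6 past the threshold in each kind of tumor, where 38.8% and 16.8% of panel genes passed. In treated tumors the call ended without either control tumor or combination replicate 3 (adjusted p between 0.0683 and 0.134). In untreated tumors it ended without control replicate 2 (change 0.92, adjusted p = 0.271) or combination replicate 2 or 3 (adjusted p 0.0998 and 0.0787). The direction held throughout. Untreated control replicate 2, the Srebf1 value of 8.66, had the fewest panel counts before scaling of the 18 samples (203455) and the largest factor (2.58). Both calls also ended after median centring (0.66, adjusted p = 0.107, in treated and 0.95, adjusted p = 0.0763, in untreated tumors) and held after centring on housekeeping genes (adjusted p = 0.0456 and 0.0437). The treated call ended among scaled samples alone (1.24, adjusted p = 0.12) and the untreated one when only the groups compared were fitted (adjusted p = 0.0835).

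Srebf2 lay lower. It had 10.10, 8.86 and 9.37 in treated combination tumors, against 10.17 and 9.94 in control, with replicate 1 among the controls and the other replicates below them. In untreated tumors it had 9.86, 9.71 and 9.55 in the combination arm, against 10.23 and 10.30 in control, with no overlap, as for 7.81% of panel genes. Its changes were -0.61 (adjusted p = 0.117) and -0.56 (adjusted p = 0.176). Over both kinds of tumor together it fell by 0.58 on the log2 scale (-1.03 to -0.14, adjusted p = 0.0329), against a panel in which 4.04% of genes fell.

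The enzyme genes lay between these. Acaca had 9.71, 9.54 and 9.55 in treated combination tumors, against 9.22 and 8.98 in control, and 9.52, 10.37 and 10.06 in untreated combination tumors, against 9.42 and 8.99 in control. Fasn had 9.90, 9.67 and 9.79 in treated combination tumors, against 9.49 and 8.66 in control, and 9.82, 10.70 and 10.22 in untreated combination tumors, against 9.61 and 9.22 in control. Scd1 had 11.86, 11.51 and 10.92 in treated combination tumors, against 10.86 and 10.51 in control, and 11.20, 12.43 and 11.71 in untreated combination tumors, against 10.93 and 10.57 in control. All 3 were above control without overlap in both kinds of tumor, as were 55.6% of panel genes in treated and 47.9% in untreated tumors.

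Within 1 kind of tumor none of the enzymes passed, with Acaca in untreated tumors the nearest (0.79, adjusted p = 0.0511). Over both kinds of tumor Acaca rose by 0.64 (adjusted p = 0.0109), Fasn by 0.77 (adjusted p = 0.0348), Scd1 by 0.89 (adjusted p = 0.0127) and Srebf1 by 1.28 (adjusted p = 0.00156), where 44.1% of panel genes rose. Acacb had 7.58, 7.59 and 6.90 in treated and 7.71, 7.90 and 7.63 in untreated combination tumors, against 7.28 and 7.05 in treated and 7.15 and 7.21 in untreated control tumors, and its change over both of 0.38 missed the threshold (adjusted p = 0.127). The median change of the 6 was 0.71, against 0.49 for the panel. Calls over both kinds of tumor count treated and untreated tumors as separate samples, though the labels do not say whether they share mice. Fewer of the 6 passed with the arm and replicate number as a random block. The call of Srebf1 over both kinds of tumor held without each of the 18 samples in turn. That of Acaca ended without replicate 2 of the untreated control (adjusted p = 0.0569), that of Scd1 without replicate 2 of either control group (up to 0.0543), and that of Fasn without replicate 2 of either control group, treated combination replicate 1 or 3 or untreated combination replicate 2 or 3 (up to 0.156). That of Srebf2 ended without any of the 4 control tumors or replicate 2 or 3 of either combination group (up to 0.108).

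The panel as a whole was higher in the combination arm, so the size of these rises depended on how the samples were scaled. Centring each sample on its median over genes above background everywhere took 0.47 from each combination change against control in either kind of tumor. Then Acaca, Fasn and Scd1 over both kinds of tumor stood at 0.17, 0.30 and 0.42 with adjusted p = 0.451, 0.414 and 0.169, Acacb turned to -0.09, Srebf1 kept its call at 0.80 (adjusted p = 0.0102), and Srebf2 fell by 1.06 (adjusted p = 0.00396). Centring on 20 housekeeping genes gave 0.38 for Acaca, 0.51 for Fasn, 0.63 for Scd1, 1.01 for Srebf1 and -0.85 for Srebf2, with the last 3 past the threshold (adjusted p = 0.0484, 0.00395 and 0.00773). Called panel genes were 91.6% higher ones on the deposited scale, 51.7% after median centring and 74.6% after housekeeping centring. Srebf1 higher and Srebf2 lower over both kinds of tumor thus passed under all 3 scalings, and the enzyme calls did not. Among the scaled samples alone, with 1 control tumor of each kind, the changes over both kinds of tumor were 1.58 for Srebf1 (adjusted p = 0.0206), 1.08 for Fasn (adjusted p = 0.0353) and -0.54 for Srebf2 (adjusted p = 0.245).

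Markers of other cells also differed in level. The 14 measured of 16 T cell markers summed to between 1195 and 4154 counts in treated combination tumors, against 390 to 398 in treated control tumors, and to between 484 and 1022 in untreated combination tumors, against 390 to 475 in untreated control tumors. The 5 measured of 12 macrophage and monocyte markers summed to between 7826 and 11914 counts in treated combination tumors, against 5532 to 7119 in control. The 2 measured of 10 fibroblast markers moved further, with 731 to 2289 counts in treated combination tumors, against 99 to 103 in treated control tumors, and 129 to 276 in untreated combination tumors, against 68 to 132 in untreated control tumors. The 8 measured of 9 NK and cytotoxic cell markers summed to between 1125 and 5885 counts in treated combination tumors, against 412 to 415 in control. The 5 measured of 10 neutrophil and mast cell markers summed to 216 to 855, against 120 to 124. The 1 measured of 7 endothelial markers had 54 to 404, against 25 to 30. In treated control tumors 2 to 4 of the 14 T cell and 4 of the 5 macrophage markers were above background. Of the fibroblast markers 1 of 2 was above it there, of the NK and cytotoxic markers 4 to 5 of 8. Of the neutrophil and mast cell markers 1 of 5 was, and of the endothelial markers 0 of 1. These control sums thus hold counts at background, and ratios to them do not measure cell content. Under anti-Semaphorin4D the T cell markers summed to between 343 and 491 counts in treated tumors, a range that takes in the control values. The macrophage and monocyte markers summed to between 7309 and 7647 counts there, above the 5532 to 7119 of control. In untreated tumors they summed to 6156 and 6817 counts under the antibody, against 6071 and 6245 in control, with overlap. Treated antibody tumors also exceeded control in NK and cytotoxic (559 to 582) and fibroblast (134 to 155) sums. Their neutrophil and mast cell sums (116 to 126) overlapped control, as did all these sums in untreated tumors. Under HER2 DC1, treated tumors exceeded control in T cell (501 to 796), NK and cytotoxic (441 to 1434) and fibroblast (174 to 208) sums. Neutrophil and mast cell (200 to 300) and endothelial (73 to 94) sums did too, but macrophage sums (5547 to 5790) did not. Adipocytes are rich in the lipogenic genes, and 2 of 11 adipocyte markers were on the panel. Cd36 had 6.15, 8.93 and 7.31 in treated combination tumors, against 5.67 and 6.53 in control, and Pparg was above background in 1 of the 18 samples, replicate 2 of the treated combination. That tumor had log2 levels of 9.54 for Acaca, 9.67 for Fasn, 11.51 for Scd1 and 8.86 for Srebf2. It also had the highest T cell, macrophage and fibroblast sums given above. The part of these cells in the changes was not tested.

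The difference between Srebf1 and Srebf2 within a sample does not depend on the scaling. It compares 2 probes, so its zero has no meaning and only its change between groups does. In log2 units it was 0.64, 1.54 and 1.53 in treated combination tumors, against -0.51 and -0.50 in treated control tumors, and 0.14, 1.13 and 1.34 in untreated combination tumors, against -0.57 and -1.64 in untreated control tumors. The group means were apart by 1.74 and 1.98, and the -1.64 came from the sample with the fewest panel counts. Under anti-Semaphorin4D the difference was -0.11 and -0.78 in treated and -0.77 and -0.63 in untreated tumors, within or near the control values, with means apart by 0.06 and 0.41. HER2 DC1 lay between, at 0.23 and 0.34 in treated and -0.51 and 0.11 in untreated tumors. A wider gap to Srebf2 in the combination arm was not particular to Srebf1. For Scd1 minus Srebf2 the combination and control means were apart by 1.35 in treated and 1.59 in untreated tumors. For Fasn minus Srebf2 they were apart by 1.32 and 1.39. Relative to the panel median change, the change of Srebf2 itself was -1.14 in treated and -1.01 in untreated combination tumors.

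**Figure D4:**
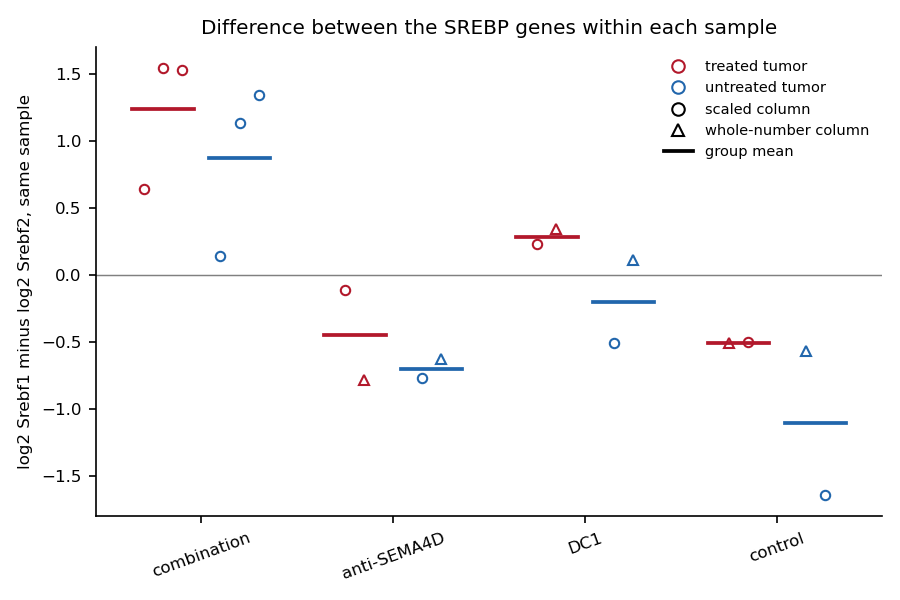
Log2 level of Srebf1 minus that of Srebf2 in each tumor, by arm, with treated tumors in red, untreated tumors in blue and bars for group means. All 6 combination tumors, at 0.14 to 1.54, lie above the 4 control tumors, at -1.64 to -0.50, and above the 4 antibody tumors, at -0.78 to -0.11.

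The combination was then set against the antibody alone, where the groups differ by HER2 DC1, and 4 of the 6 genes passed in treated tumors and 5 in untreated tumors. In treated tumors, where 36.8% of panel genes passed, Acaca was higher by 1.00 in the combination arm (0.45 to 1.55, adjusted p = 0.00976), Fasn by 1.26 (0.41 to 2.10, adjusted p = 0.0237), Scd1 by 1.13 (0.34 to 1.92, adjusted p = 0.0276) and Srebf1 by 1.19 (0.42 to 1.97, adjusted p = 0.0204). Acacb at 0.71 (adjusted p = 0.0653) and Srebf2 at -0.49 (adjusted p = 0.205) did not pass. In untreated tumors, where 12.5% of panel genes passed, the same 4 genes and Acacb were higher. Scd1 led with 1.52 (0.73 to 2.31, adjusted p = 0.0245), a 2.87-fold difference, and Acaca (0.99), Acacb (0.98), Fasn (1.34) and Srebf1 (1.28) had an adjusted p between 0.0291 and 0.0408.

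In both kinds of tumor the lowest combination tumor was above the highest antibody tumor for Acaca, Fasn, Scd1 and Srebf1, as for 52% of panel genes in treated and 50.5% in untreated tumors. In untreated tumors 94.7% of panel genes had a smaller change than Scd1 and 92.1% than Fasn. The calls rested in part on single samples. Without replicate 1 of the treated antibody tumors all 4 calls ended in treated tumors, and the change of Fasn was 0.58 (adjusted p = 0.329), against 1.26 with it. That of Srebf1 also ended without antibody replicate 2 or combination replicate 3, that of Scd1 without antibody replicate 2 or combination replicate 1 or 2 and that of Fasn without combination replicate 3, with an adjusted p between 0.0503 and 0.111. Without either replicate of the untreated antibody tumors, or without replicate 2 or 3 of the untreated combination, all 5 calls in untreated tumors ended, with an adjusted p of up to 0.344. Those of Acacb, Fasn and Srebf1 also ended, at up to 0.0546, without some samples of other groups, through the shared estimate of spread. After median centring none of the rises was past the threshold in either kind of tumor, and Srebf2 was past it in treated tumors (-1.03, adjusted p = 0.0330). These comparisons use the same combination tumors as those with control, so their results are not separate evidence.

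**Figure D5:**
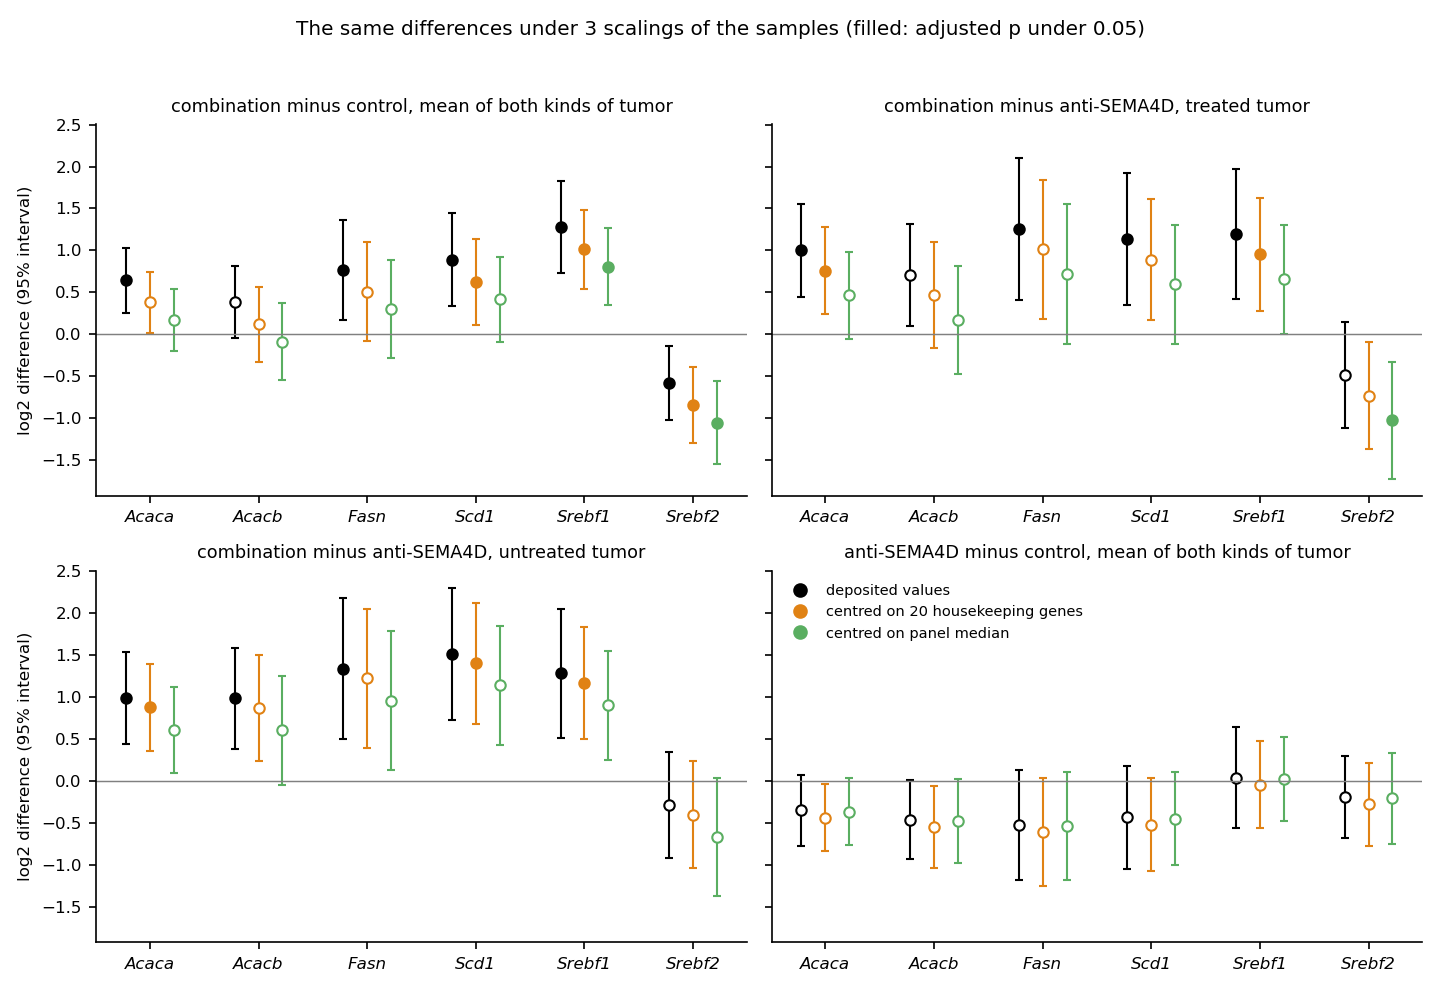
Log2 difference of each gene for the combination minus control over both kinds of tumor, the combination minus anti-Semaphorin4D in treated and in untreated tumors and anti-Semaphorin4D minus control over both kinds, with 95% intervals under 3 scalings of the samples (black, deposited values; orange, centred on 20 housekeeping genes; green, centred on the panel median), with filled points past an adjusted p of 0.05. Moving to the panel median takes 0.38 to 0.54 from the combination differences shown and leaves those of anti-Semaphorin4D minus control nearly in place.

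Against HER2 DC1 alone, the combination showed no call among the 6 genes in either kind of tumor, where limma called 1.82% and 0% of panel genes. In treated tumors Acaca (0.00), Scd1 (0.05) and Fasn (0.24) had changes of 0.24 or less, with intervals of -0.55 to 0.55, -0.73 to 0.84 and -0.60 to 1.08, and none of the 6 had an unadjusted p under 0.05, against 26.7% of the panel. Srebf1 in untreated tumors was 1.10 higher than under HER2 DC1 (adjusted p = 0.170), Acacb 0.86 higher (adjusted p = 0.170) and Scd1 0.85 higher (adjusted p = 0.255). These 3 had an unadjusted p under 0.05, as had 17.7% of panel genes.

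Whether the combination exceeded the sum of its parts was tested as an interaction. The estimate in untreated tumors was above 0 for all 6 genes, at 1.34 for Scd1 (0.17 to 2.51), 1.28 for Acacb (0.38 to 2.18), 1.05 for Fasn, 0.96 for Srebf1, 0.67 for Acaca and 0.31 for Srebf2. None passed in limma (adjusted p at least 0.611). Scd1 and Acacb had an unadjusted p under 0.05, as had 6.9% of the panel, where 0% passed after adjustment. In treated tumors the interaction ran between -0.29 for Srebf2 and 0.79 for Fasn, with 0 of 6 genes and 8.98% of the panel at an unadjusted p under 0.05 and 0% after adjustment.

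The kind of tumor made no called difference in these genes. Treated minus untreated, the change lay between -0.46 (Fasn) and 0.10 (Srebf1) in the combination arm, where 9.11% of panel genes passed. It lay between -0.40 (Acaca) and 0.19 (Srebf1) under anti-Semaphorin4D, between -0.16 (Fasn) and 0.66 (Srebf1) under HER2 DC1, and between -0.34 (Fasn) and 0.39 (Srebf1) in control, where 0% of panel genes passed each time. At an unadjusted p under 0.05, 0 of the 6 genes passed in these 4 comparisons, against 31.2%, 1.82%, 13% and 6.51% of the panel. The group mean of Fasn was lower, and that of Srebf1 higher, in treated than in untreated tumors of all 4 arms on the deposited scale, without passing in any. In the combination arm the sign of Srebf1 turned to -0.11 after median centring and -0.08 after housekeeping centring. The antibody's change in treated minus that in untreated tumors was between -0.30 (Acaca) and 0.15 (Srebf2), with 0% of the panel past the adjusted threshold and 1.17% before it.

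In the order of group means, Acaca, Fasn and Scd1 had both combination groups on top, then HER2 DC1, control and the antibody. Most neighbours in that order overlapped. For Acaca there were gaps between untreated HER2 DC1 and untreated control tumors and between untreated and treated antibody tumors. For Acacb the gap lay below untreated combination tumors, and for Scd1 between treated control and treated antibody tumors, while Fasn had none. Srebf1 had a gap between treated HER2 DC1 and treated control tumors. For Srebf2 the order began with untreated control tumors, separate from treated control tumors, and ended with treated combination tumors.

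The enzymes had correlated levels over the 18 samples, which share scaling, panel and, in part, groups. Pearson's r was 0.945 between Acaca and Fasn, the closest pattern to each among the 461 other genes above background in every sample, and 0.90 between Acaca and Scd1. It was 0.86 for Acaca and Fasn when the group means were taken out. Srebf1 correlated with Scd1 at 0.81, with Acaca at 0.72 and with Fasn at 0.60, and Srebf2 correlated with the 4 enzymes at between -0.31 and -0.14. The sign of the Srebf2 values was not stable, since they were 0.22 to 0.36 when the group means were taken out, and that with Acacb was 0.25 after median centring and 0.08 after housekeeping centring. After median centring Srebf1 and Fasn stood at 0.32 and Srebf1 and Scd1 at 0.61.

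Outside the 6 genes, the patterns most like Acaca were Kat6a, a histone acetyltransferase, at 0.917 and the laminin chain Lamb1 at 0.910, and those most like Fasn were Kat6a at 0.905 and the laminin chain Lamc1 at 0.894. Scd1 was most like Trp53, the p53 tumor suppressor, at 0.929, and the collagen gene Col4a1 followed at 0.889. Acacb had its highest values with Fasn at 0.791, and with Herc1, a ubiquitin ligase, and the receptor gene Egfr at 0.781 each. Srebf1 was most like Pfkm, a phosphofructokinase of glycolysis, at 0.957, the immune ligand gene Cd276 at 0.939 and Itch, a ubiquitin ligase, at 0.922. Srebf2 was most like the mitotic kinase gene Plk1 at 0.874, the carbonic anhydrase gene Car12 at 0.820 and Rptor, the mTORC1 scaffold, at 0.817. Each value is over 18 samples.

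Other genes of lipid metabolism were read from lists, and under anti-Semaphorin4D or HER2 DC1 alone 0 genes of any list passed against control. Of 30 listed genes of fatty acid synthesis and its supply 6 were measured, and over both kinds of combination tumor 4 rose and 0 fell. They were Mlycd (malonyl-CoA decarboxylase, 0.69), Slc25a1 (the citrate carrier, 0.44), Mcat (mitochondrial malonyl transfer, 0.47) and Hacd2, which was above background in 1 of 18 samples. The list is wider than cytosolic synthesis, since Mlycd removes malonyl-CoA and Mcat acts in mitochondria, so this count does not measure that pathway. After median centring Slc25a1 stood at -0.03 and Mlycd at 0.22, neither past the threshold. The median change of these 6 was 0.46, against 0.49 for the panel. Acly, which makes cytosolic acetyl-CoA, and the elongase gene Elovl6 were not analysed here, and of 23 listed cholesterol genes Acat2 alone was measured, with a change of 0.07 that did not pass.

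Of 20 measured genes of SREBP control and its upstream kinases, 12 rose and 1 fell over both kinds of combination tumor, with a median of 0.72 against 0.49 for the panel. Mtor, the kinase of mTORC1, rose by 1.54 (adjusted p = 0.000142), Akt2 by 1.00 (adjusted p = 0.000513) and Pik3r1, a PI3-kinase subunit, by 0.80 (adjusted p = 0.00063). Rptor fell by 0.63 (adjusted p = 0.0115). Mtor passed under all 3 scalings, whereas Pik3r1 did not after median centring (0.33, adjusted p = 0.113). Scap and Insig1, which carry and hold back SREBPs, and the proteases that release them were not analysed here.

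Of 7 measured genes of fatty acid oxidation, 4 rose and 0 fell, among them Acaa2, a thiolase of mitochondria (1.07, adjusted p = 0.000465). Cpt1a, the mitochondrial entry step that malonyl-CoA inhibits, rose by 0.71 (adjusted p = 0.00301) and by 1.15 in treated tumors (adjusted p = 0.00285), and over both kinds of tumor it did not pass after median centring (0.24, adjusted p = 0.164). The list's median was 0.36, below the 0.49 of the panel. Of 7 measured genes of NADPH supply 4 rose and 1 fell, with Pgd of the pentose phosphate pathway at 1.03 (adjusted p = 0.000938), the kinase gene Nadk at 1.02 (adjusted p = 0.00141) and its mitochondrial counterpart Nadk2 at -0.83 (adjusted p = 0.000607). Of 3 measured genes of fatty acid uptake and storage 2 rose, Fabp5, a fatty acid carrier, by 1.06 (adjusted p = 0.00356) and Slc27a1, above background in 11 of 18 samples. Over all 5 lists with more than 1 gene, the share called is to be read beside the 48.2% of panel genes called in this comparison.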

How the data were processed

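RNA of 18 tumors was read with a NanoString panel of 768 genes, 6 positive and 8 negative control probes. The values are log2(count + 1) as deposited by the authors. The one tool named, per the submitters' processing notes, is limma, with no role stated; normalization and background handling are not given in these sources. From the values, 12 columns are counts times 1 factor per sample and 6 are whole numbers. Their panel genes stepped in whole counts (100% of values up to 500 within 0.05) once the factor was removed. Negative-control limits, mean plus 2 SD times the factor, were 4.95 to 5.85 on the log2 scale. Log2 levels of the 6 genes went down to 6.33 in Acacb, where counting error weighs most, and 2 or 3 samples a group limit the precision.

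All groups entered a single lmFit and eBayes model in limma 3.58.1 under R 4.3.3, which left 10 residual degrees of freedom, and 24 comparisons were drawn from it. In each comparison the Benjamini-Hochberg adjustment covered all 768 genes, and adjusted p under 0.05 counted as passing. The script was tested on simulated data. Alternatives were other scalings, filters on dim genes, a pseudocount of 20, trended moderation, fewer groups, blocks, and each sample left out. The subset of scaled columns was chosen after seeing the data. Named genes are the 6, from each list up to 3 genes per direction with the smallest adjusted p against control, and for each of the 6 the 3 panel genes with the highest Pearson correlation. The members and lists were chosen with earlier results of these data known. Symbols matched RefSeq for 767 of 768 genes. Promoter windows are RefSeq's. One gene that the rule names is not reported here.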

Additional observations from a re-analysis of the deposited data

How the results depend on the processing

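The number of the 6 genes past the threshold stayed at 0 under every alternative for each single agent against control, the antibody against HER2 DC1 and the interactions. For the combination against control it was 1 in treated tumors, and 2 with housekeeping centring, 0 with scaled columns only and 0 to 2 without single samples. With median centring it was also 1, but that gene was Srebf2 (-1.08, adjusted p = 0.0243) and not Srebf1 (0.66, adjusted p = 0.107). In untreated tumors it was 1, and 0 with median centring or only the groups compared, 2 without dim genes or with a pseudocount of 20, 3 with trended moderation or when the kind of column was a block, and 0 to 3 without single samples. Over both kinds it was 5, and 2 with median centring, 3 with housekeeping centring or the arm and replicate number as a random block, 2 with scaled columns only, and 1 to 5 without single samples. For the combination against the antibody it was 4 in treated tumors, and 1 with median centring, 2 with housekeeping centring, 1 with only the groups compared, 0 with scaled columns only and 0 to 4 without single samples. In untreated tumors it was 5, and 0 with median centring, 3 with housekeeping centring, 0 with only the groups compared, 0 with scaled columns only and 0 to 5 without single samples. For the combination against HER2 DC1 in treated tumors it was 0 to 1 without single samples. Where a sample was left out of a group of 2, the lone sample is assumed to vary like the other groups. The cause of these moves was not tested, apart from the shift that centring removes by construction and the samples that other settings drop. Panel counts past the threshold moved as well. For the combination against control in treated tumors 298 became 155 with only the groups compared and 0 with scaled columns only, and ran from 132 to 334 without single samples. In untreated tumors 129 ranged from 4 with only the groups compared to 198 when the kind of column was a block, with 47 and 48 after median and housekeeping centring, and from 1 to 171 without single samples. Over both kinds 370 became 183 with scaled columns only and 286 to 399 without single samples. Against the antibody 283 became 121 with only the groups compared and 0 with scaled columns only in treated tumors, and 106 to 323 without single samples. In untreated tumors 96 became 34 and 59 after median and housekeeping centring, 1 with only the groups compared or scaled columns only, 55 with the replicate block and 0 to 150 without single samples. Against HER2 DC1 in treated tumors 14 ran from 0 to 45 under the alternatives and from 0 to 162 without single samples, and for treated against untreated combination tumors 70 ran from 3 to 167 and from 5 to 158.

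The replicate number was not taken as a pairing, because the labels do not say that a number marks 1 mouse and not every same-number correlation was over 0.1. The deviations of treated and untreated tumors of the same number correlated at 0.30, -0.18 and 0.08 in the combination arm, 0.62 under the antibody, 0.71 under HER2 DC1 and -0.08 in control. In the last 3 arms, tumors of the same number also had the same kind of deposited column. A shared mouse and a shared kind of column cannot be told apart there. With 2 tumors a group the deviations mirror each other, so each of these arms gives 1 value. The replicate block gave each number a shared effect across all arms and both kinds of tumor, so it is not a pairing by mouse. With this block the counts were 0 and 0 for the combination against control in treated and untreated tumors. Srebf1 stood there at 1.00 (adjusted p = 0.0673) and 1.29 (adjusted p = 0.0588). The count was 3 over both kinds of tumor and 2 for the combination against the antibody in untreated tumors. For the combination against HER2 DC1 in treated tumors Acaca was -0.003.

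Among the comparisons between arms, sign changes concerned values that were not past the threshold, except Slc25a1. Median centring gave 0.004 for Srebf1 under the antibody in treated tumors, -0.34 for Acacb and -0.07 for Scd1 under HER2 DC1 in treated and untreated tumors, -0.28 and -0.09 for Acacb under the combination in treated tumors and over both, and -0.03 for Slc25a1. Against HER2 DC1 it gave -0.13 for Acaca and -0.08 for Scd1 in treated combination tumors, -0.19 for Srebf2 in untreated combination tumors and 0.03 for Acacb in untreated antibody tumors. Housekeeping centring gave -0.010 and -0.05 for Srebf1 under the antibody in untreated tumors and over both, -0.20 for Acacb under HER2 DC1, -0.07 for Acacb under the combination in treated tumors, and against HER2 DC1 -0.06 for Acaca, -0.01 for Scd1 and -0.05 for Srebf2. Scaled columns only gave 0.15 for Srebf1 under the antibody in treated tumors, -0.04 for Scd1 under HER2 DC1, and against HER2 DC1 -0.13 for Acaca and -0.17 for Acacb in treated combination tumors, -0.12 for Srebf2 in treated and 0.13 for Srebf1 in untreated antibody tumors. For treated minus untreated tumors, where no value was past the threshold, median centring turned Srebf1 in the combination arm to -0.11, Acaca, Acacb and Srebf2 under HER2 DC1 to -0.23, -0.03 and -0.12 and Scd1 under the antibody to -0.02. Housekeeping centring turned all of these but Acacb, with -0.08 for Srebf1, -0.13 for Acaca, -0.03 for Srebf2 and -0.02 for Scd1.

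With single samples left out, values on both sides of 0 came up for 17 results of the comparisons between arms and their interaction. Under the antibody they ran from -1.22 to 0.13 for Fasn, -0.17 to 0.05 for Srebf1 and -0.35 to 0.11 for Srebf2 in treated tumors, -0.42 to 0.01 for Acaca and -0.36 to 0.64 for Srebf1 in untreated tumors, and -0.21 to 0.29 for Srebf1 over both. Under HER2 DC1 they ran from -0.37 to 0.37 for Acacb in treated tumors, and -0.22 to 0.57 for Scd1 and -0.18 to 0.82 for Srebf1 in untreated tumors. For the combination against HER2 DC1 they ran from -0.13 to 0.14 for Acaca, -0.17 to 0.56 for Acacb and -0.16 to 0.31 for Scd1 in treated tumors and -0.13 to 0.20 for Srebf2 in untreated tumors. For the antibody against HER2 DC1 they ran from -0.15 to 0.31 for Srebf2 in treated tumors and -0.31 to 0.05 for Acacb and -0.66 to 0.30 for Srebf1 in untreated tumors, and for the interaction in treated tumors from -0.62 to 0.002 for Srebf2.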
